A study of Arabidopsis thaliana with 17 samples.

Results

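Bioprinted constructs were compared with isolated cells, both made from Arabidopsis thaliana root tissue labelled meristematic and both collected at day 0. Bioprinting lays down cells suspended in a gel-forming ink in a chosen geometry; how the cells were isolated is not given in the labels. Entries were kept where the authors' pooled FPKM, fragments scaled to transcript length and to library size, was at least 1 in cells or in constructs, which left 17561 of 33201 entries of the group table. All of the plants carried pSCR:SCR-mCherry, a fluorescent fusion of SCARECROW (SCR) under its own promoter, so no group lacked the transgene. SCR is a transcription factor of the endodermis and the stem cell niche. Each of the 2 groups had 3 libraries, out of 17 libraries in 6 groups, the isolated cells being its stated control, and the series reports 3 independent experiments. Constructs and cells of tissue labelled differentiated, also pSCR:SCR-mCherry at day 0 with 3 libraries each, are given beside them. The table holds 1 pooled FPKM per group and no value per library, so the values below carry no SD, and a gene was called where the authors' deposited q-value was under 0.05.

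Several groups of genes recur in the results. Heat shock proteins are chaperones that hold or refold unfolded proteins, and heat shock factors switch their genes on by binding short GAA and TTC units in promoters. Growing root cells loosen their walls with expansins and xyloglucan enzymes, move water through aquaporins and acidify walls and vacuoles with proton pumps. Secreted peptides of the RALF and CLE families signal through receptor kinases, and wounding or touch brings up calcium-binding proteins and ethylene response factors within minutes to hours in intact plants.

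Only whole-library measures could be taken from the library table, because its lines do not keep 1 gene each. Summed FPKM was 760597, 772774 and 771883 in the construct libraries and 768155, 748876 and 996810 in the cell libraries. Replicate 3 of the cells stood apart in that sum and in detecting 14756 genes at an FPKM of at least 1, where the other 5 libraries detected 15790 to 16587. Pooled values without replicate 3 of the cells cannot be had, so every ratio below includes it. Summed FPKM (exact permutation test, two-sided, p = 0.9) and genes detected (p = 1 by the same exact test) did not differ beyond the spread between 3 and 3 libraries, where the smallest p is 0.1.

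The label of the tissue was checked against marker genes. All 9 measured markers of the meristem and stem cell niche and all 6 of dividing cells were lower in cells labelled meristematic than in cells labelled differentiated, with summed FPKM of 49.8 against 73.0 for the former. PLT1 and BBM, which specify the niche, stood at 0.342 and 0.216. All 7 root hair markers were higher in the cells labelled meristematic, 361 against 250 in sum. These classes went against the label, and the tissue is named here as labelled. Other classes were mixed. The root cap marker SMB was higher in cells labelled meristematic, at 8.48 against 4.62. Suberised endodermis markers were near the floor in both, at 0.291 against 0.545 in sum. Of 8 endodermis markers 3 were higher in cells labelled meristematic, as were all 6 xylem markers. Between constructs and cells, SCR itself stood at 6.88 and 7.74 (q 0.746 in the authors' deposited table), no niche or dividing-cell marker was called, and 5 of 7 root hair and 3 of 8 endodermis markers were lower in constructs. None of the 6 xylem markers was called, and their sum was 348 in cells and 413 in constructs. In bulk libraries, fewer cells of a type and less RNA per cell cannot be told apart.

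Across all genes, the deposited values were lower more often than higher in constructs. Of the genes tested, 1823 (10.4%) were called, 326 (1.86%) higher and 1497 (8.52%) lower. The median log2 ratio of constructs over cells was -0.14, with quartiles of -0.57 and 0.20, and 39.7% of genes were above 0. The median of the genes called higher was 1.21 and that of the genes called lower was -1.19. In tissue labelled differentiated, 5.08% of 17654 genes were called higher and 7.38% lower. Summed pooled FPKM was 1234075 in cells and 977817 in constructs. Each exceeds the sum of every library of its group, so the pooled columns are no plain mean of the library columns. The test on library sums therefore does not bear on this difference. Rescaling both pooled columns to TPM, which makes them sum to the same total, raised every log2 ratio by 0.336. The median of all genes became 0.20, and a list median below 0 by less than 0.336 turns positive. All 1497 lower calls stayed below 0 and all 326 higher calls above 0 under TPM, but at least 2-fold differences among them went from 1176 lower and 234 higher to 492 lower and 326 higher. Lower calls were also more frequent among abundant genes, at 1.39% of genes whose higher FPKM was from 1 to 5 and 21.8% of those at 100 or more, where higher calls made up 1.04% and 2.77%.

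The ratio of constructs over cells was higher for longer transcripts above the shortest classes. Lengths were those of the longest annotated transcript in TAIR10.1. The median log2 ratio was -0.71 up to 600 bases, -0.79 for transcripts of 601 to 800 bases, -0.24 for 1201 to 1500, -0.11 for 1501 to 2000, 0.08 for 2501 to 3000 and 0.18 above 4000. Lower calls made up 12.94% of genes up to 600 bases, rose to 26.16% at 801 to 1000 bases and came down to 0.16% above 4000, whereas higher calls made up 1.04%, 1.01% and 3.16%. The genes called lower had a median length of 1081 bases, the genes called higher 2043 and all genes tested 1680. Spearman's rho between length and ratio was 0.409 across 17104 genes, as a description across genes that are not independent replicates. The order was the same at 3 levels of expression. At a mean FPKM of 100 or more the median was -0.92 up to 1000 bases, -0.25 above that up to 2500 bases and 0.04 beyond 2500, and at a mean under 10 the same medians were -0.56, -0.11 and 0.12. The same rho was 0.342 across 17200 genes of tissue labelled differentiated, whose class medians ran from -0.45 to 0.49.

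**Figure D1:**
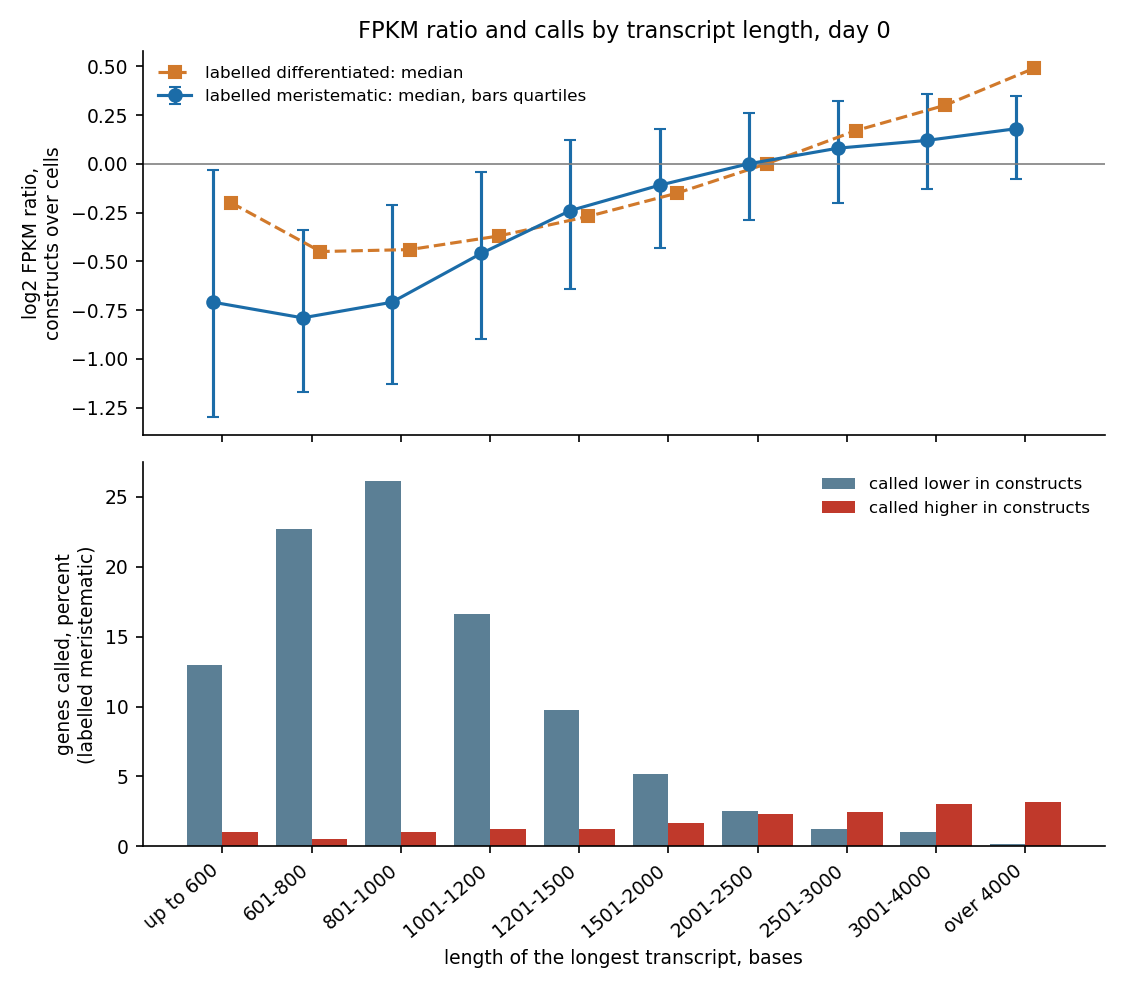
Upper panel, median log2 FPKM ratio of constructs over cells (y) in 10 classes of transcript length in bases (x), with quartiles as bars for cells labelled meristematic and medians alone for cells labelled differentiated. Lower panel, percent of genes in each class called lower or higher in the tissue labelled meristematic; the median is -0.71 in the shortest class, -0.79 in the next and 0.18 in the longest, and lower calls go from 12.94% through a peak of 26.16% to 0.16%.

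Gene families differ in length, so nuclear list medians are set beside a length-class value, the median over the members of the median ratio of all genes in the same length class. Many counts of calls are set beside a same-length share. This is the mean over the members of the percent of genes in their length class called the same way. That share takes no account of expression level. Among all genes up to 1000 bases, lower calls made up 4.46% at a mean FPKM under 10, 33.66% at 10 to 100 and 43.64% at 100 or more. The part of length in each result was not tested. Of 94 lists of genes by family or process, 27 had a median above 0 and 67 below, and 11 held no called gene. Under TPM 65 medians were above 0 and 29 below, so this split depends on the scaling. Of the 92 lists with lengths, the median distance of members from their length class was within 0.3 on the log2 scale in 72, over 0.3 above in 7 and over 0.3 below in 13.

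**Figure D2:**
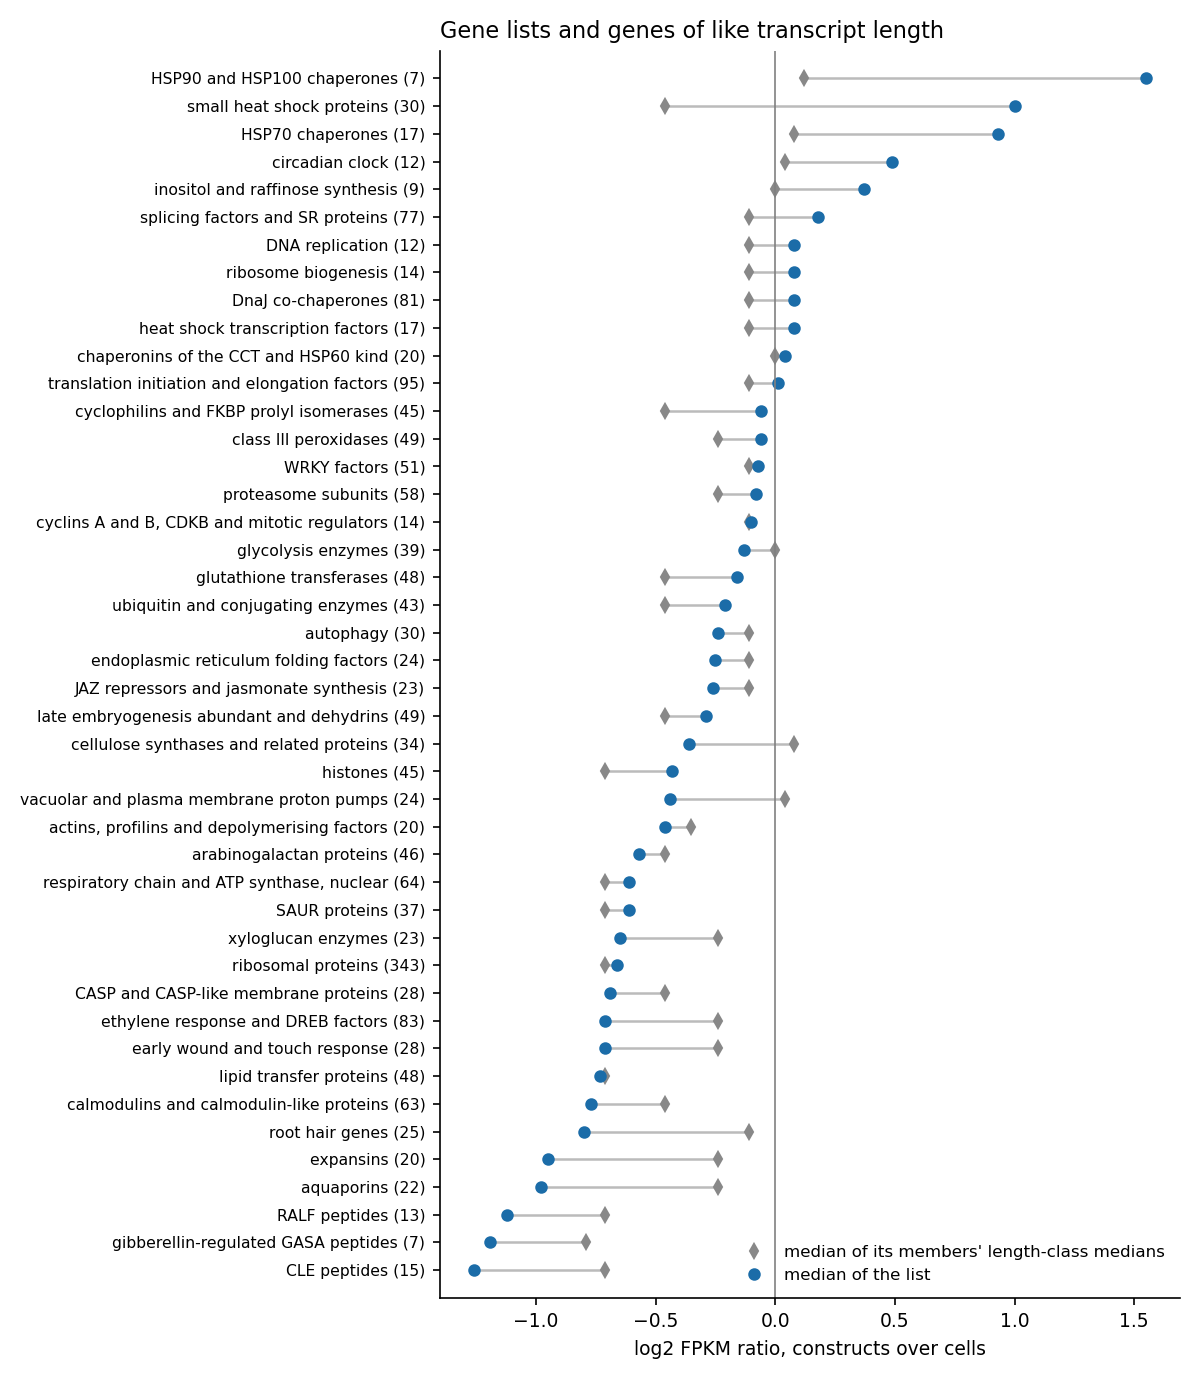
Median log2 FPKM ratio of constructs over cells (x) of each list of genes described, as circles, and the length-class value of its members, as diamonds; numbers in brackets are members tested. Small heat shock proteins sit at 1.00 with a length-class value of -0.46, while ribosomal proteins sit at -0.66 beside -0.71 and CLE peptides at -1.26 beside -0.71. Taken member by member, the median distance of ribosomal proteins from their length class is -0.11.

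Protein folding held the 3 lists farthest above their length class, small heat shock proteins, HSP70 and HSP90 with HSP100. Of 30 small heat shock protein and HSP20-like entries, 16 were called higher (53.3% beside a same-length share of 1.2%) and none lower. The median was 1.00 beside a length-class value of -0.46. Their summed FPKM was 8296 in cells and 21220 in constructs. HSP21, the chloroplast member, stood at 34.2 in cells and 170 in constructs, a log2 ratio of 2.32. ATHSP22.0, of the endoplasmic reticulum, stood at 157 and 730, and HSP23.6-MITO, of mitochondria, at 158 and 530. Cytosolic members were the most abundant. HSP17.6II rose from 825 to 2568, HSP17.6A from 987 to 2623, HSP17.4 from 566 to 1967 and HSP18.2 from 97.1 to 360. AT2G29500 stood highest of the list in both groups, at 2041 and 3548, and was not called (q 0.334 in the authors' deposited table). The 14 members not called also held HSP20-like proteins near or below equality, such as AT4G02450 at 94.5 and 94.4 and AT5G58740 at 125 and 84.6. Close copies among these genes can exchange fragments, so single members are uncertain.

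The large ATP-driven chaperones stood higher as well. Of 7 HSP90 and HSP100 entries, 4 were called higher (57.1% beside a same-length share of 2.76%) and none lower. The median was 1.55 beside a length-class value of 0.12. CLPB4, the mitochondrial disaggregase, rose from 22.8 to 121.5 and CLPB3, that of plastids, from 26.2 to 98.8. Cytosolic HSP101 stood at 338 and 993 and HSP90.1 at 446 and 1376, without a call (q 0.0743 and 0.0537 in the authors' deposited table). SHD, the HSP90 of the endoplasmic reticulum, stood at 30.9 in cells and 27.6 in constructs. Of 17 HSP70 entries, all 17 ratios were above 0 and 6 were called higher (35.3% beside 2.34%), with a median of 0.93 beside 0.08. AT4G32208 (0.778 and 1.48) and ERD2 (0.513 and 1.27) passed the filter only through constructs, so their ratios were above 0 by construction. The called HSP70 entries were HSP70T-2 (129 to 413), Hsp70-2 (20.5 to 52.6), AT1G11660 (38.8 to 96.0), Hsp70-15 (95.6 to 217) and the plastid proteins cpHsc70-1 (38.1 to 85.2) and cpHsc70-2 (44.5 to 84.7). The BiP proteins of the endoplasmic reticulum showed no call, BIP2 standing at 99.8 and 121 and BIP1 at 66.9 and 96.0. The medians in tissue labelled differentiated were 1.80 for small heat shock proteins, 1.26 for HSP70 and 2.93 for HSP90 and HSP100; the difference between tissues was not tested.

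**Figure D3:**
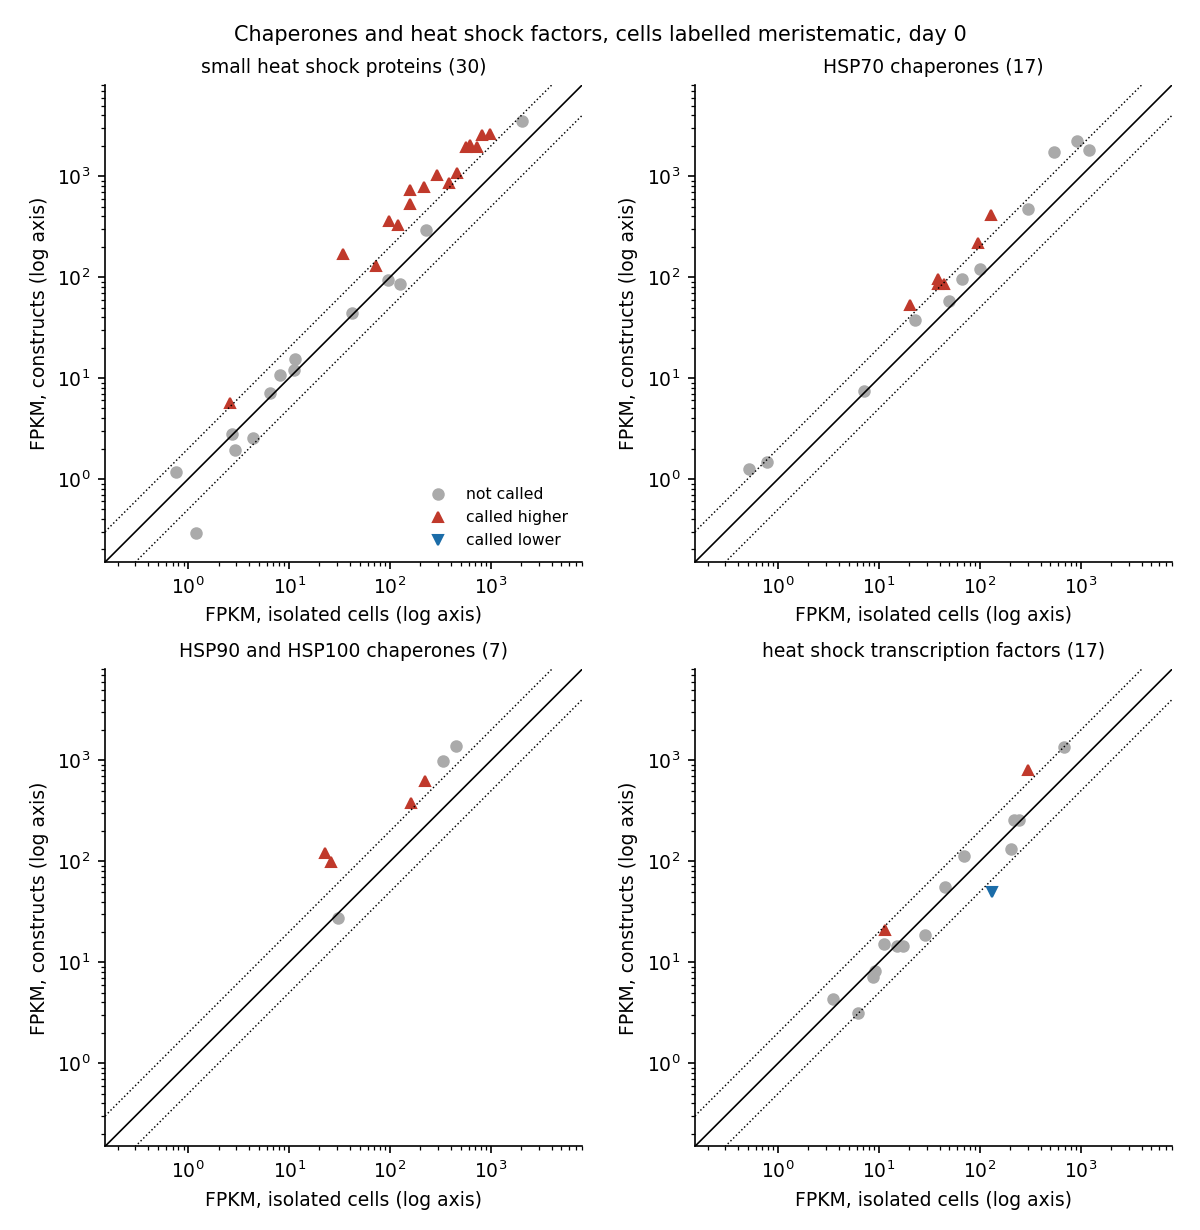
Pooled FPKM in constructs (y, log axis) against cells (x, log axis) for members of 4 lists, 1 point per gene; the solid line marks equality, the dotted lines a 2-fold difference, and colour and shape the call. In small heat shock proteins 16 of 30 points are called higher. In the list of heat shock factors, which includes their binding protein HSBP, 2 of 17 are called higher and 1, HSBP, lower.

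Promoters of the chaperones were read for paired heat shock units, because the 3 lists held 26 higher calls and no lower one. The window was the 250 bases before the annotated start of the gene, and the motif was GAANNTTC or TTCNNGAA, each of which reads the same on both strands. A pair was found in 15.8% of 17185 windows of genes tested, 24.4% of 308 windows of genes called higher and 15.5% of 1480 windows of genes called lower. It was present in 8 of 16 called small heat shock genes and in none of the 13 with a window that were not called. The other chaperones did not share this, with a pair in 0 of 6 called HSP70 genes and 1 of 11 not called, and in 1 of 4 called HSP90 and HSP100 genes and 0 of 3 not called. The longer run of 3 units, GAANNTTCNNGAA or its other strand TTCNNGAANNTTC, was found in 0.402% of all windows and 2.6% of those of genes called higher. Outside the 3 chaperone lists, 23.4% of 282 genes called higher held a pair. Genes in the folding lists were chosen with their ratios known, so these shares describe them and are no test. The windows of 4 genes are shown, 3 with a pair and ATHSP22.0 without one, from RefSeq's TAIR10.1 genome, 5' to 3' on the gene's strand, with paired units in capitals; CLPB4 and HSP18.2 held none either.
HSP17.4 (TAIR10.1 chr3:16984868-16985117, minus strand): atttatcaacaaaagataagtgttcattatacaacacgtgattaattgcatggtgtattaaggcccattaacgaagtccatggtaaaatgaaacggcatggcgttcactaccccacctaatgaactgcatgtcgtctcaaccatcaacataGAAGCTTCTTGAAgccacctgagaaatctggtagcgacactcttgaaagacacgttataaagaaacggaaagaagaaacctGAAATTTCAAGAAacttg
HSP21 (TAIR10.1 chr4:13819972-13820221, minus strand): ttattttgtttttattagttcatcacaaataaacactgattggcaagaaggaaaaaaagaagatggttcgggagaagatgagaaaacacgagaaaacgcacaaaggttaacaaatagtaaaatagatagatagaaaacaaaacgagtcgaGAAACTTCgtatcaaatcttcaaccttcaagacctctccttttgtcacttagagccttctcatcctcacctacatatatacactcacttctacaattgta
CLPB3 (TAIR10.1 chr5:5018348-5018597, minus strand): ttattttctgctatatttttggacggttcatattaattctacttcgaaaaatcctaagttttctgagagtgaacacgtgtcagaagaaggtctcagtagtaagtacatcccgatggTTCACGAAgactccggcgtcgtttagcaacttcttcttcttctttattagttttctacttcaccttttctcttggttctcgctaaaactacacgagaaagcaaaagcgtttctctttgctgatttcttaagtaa
ATHSP22.0 (TAIR10.1 chr4:6370088-6370337, plus strand): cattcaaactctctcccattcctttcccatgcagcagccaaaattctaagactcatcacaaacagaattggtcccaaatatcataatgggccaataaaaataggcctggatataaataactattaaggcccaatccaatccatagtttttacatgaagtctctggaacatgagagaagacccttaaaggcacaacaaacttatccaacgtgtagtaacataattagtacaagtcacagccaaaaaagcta
HSP17.4 held 4 pairs in 2 runs of 3 units, between 13 and 99 bases before its start, and HSP21 and CLPB3 held 1 pair each. ATHSP22.0 had a log2 ratio of 2.22 with no pair in its window, and a window without a match says nothing about binding elsewhere.

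Regulators and helpers of folding were mixed. Among 17 entries of heat shock factors and their binding protein HSBP, the median was 0.08 beside -0.11. The 2 higher calls (11.8% beside a same-length share of 1.74%) were factors, and the 1 lower call (5.88% beside 7.13%) was HSBP. HSFA2, which sustains the heat response, rose from 302 to 799, and HSFA1D, one of its upstream activators, from 11.5 to 20.7. HSBP, which binds and restrains heat shock factors, fell from 133 to 49.6. HSF4, the most abundant factor, stood at 675 and 1360 without a call (q 0.121 in the authors' deposited table). HSFA7A stood at 242 and 255, HSFB2A at 220 and 255 and HSFA6B at 205 and 133, also without a call. Of the 17 ratios 9 were above 0 and 8 below. Of 81 DnaJ co-chaperones, 5 were called higher (6.17% beside a same-length share of 1.73%) and 4 lower (4.94% beside 8.64%), at 0.08 beside -0.11. ATERDJ3A, of the endoplasmic reticulum, rose from 49.5 to 150. Among 20 chaperonins 3 were called, all higher and all organellar, namely Cpn60beta2 (22.8 to 75.3), CPN60A (20.9 to 50.8) and HSP60 (24.1 to 59.6), whereas the list median was 0.04 beside 0.00. Of 45 cyclophilins and FKBP isomerases, 2 were higher (4.44% beside 1.42%) and 3 lower (6.67% beside 13.6%), at a median of -0.06 beside -0.46. FKBP53, a nuclear histone chaperone, rose from 15.2 to 64.4 and ROF1, which binds HSP90, from 216 to 469. The lower calls were ROC1, FKBP15-1 and FKBP15-2. The folding factors of the endoplasmic reticulum had no higher call and 2 lower ones among 24 (8.33% beside 5.35%), at -0.25 beside -0.11. BZIP60, the factor that switches on the unfolded protein response, fell from 363 to 159.

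Protein breakdown showed few calls. The proteasome held 1 called gene of 58 entries (1.72% beside a same-length share of 9.23%), at a median of -0.08 beside -0.24. The called gene was AT1G67250, a UMP1-type maturation factor that fell from 74.2 to 33.3. Ubiquitin and its conjugating enzymes held 6 lower calls of 43 (14.0%, beside a same-length share of 13.5%), at -0.21 beside -0.46. UBC1 fell from 446 to 190 and UBQ1 from 349 to 167. In autophagy, 4 of 30 were lower (13.3%, beside a same-length share of 9.24%, at -0.24 beside -0.11), all coding for the small ubiquitin-like proteins, ATG8C (75.4 to 36.2), ATG8D (77.4 to 39.4), APG8H (318 to 166) and APG12B (12.4 to 4.59).

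Ribosomal proteins formed the largest block of lower calls of any list. Of 343 entries, 105 (30.6%) were called lower and none higher, and 305 of the ratios were below 0. Their summed FPKM was 24970 in cells and 14480 in constructs. The median of -0.66 stood beside a length-class value of -0.71, though the median distance of members from their length class was -0.11. The same-length share was 18.3%. That share takes no account of level. Among all genes up to 1000 bases, lower calls made up 4.46% at a mean FPKM under 10 and 33.66% at 10 to 100. RPS15 fell from 168 to 59.99, RPS28 from 186 to 71.5, AT4G15000, an L27e protein, from 465 to 146, and AT1G74270, an L35Ae protein, from 139 to 44.8. Of 346 tested in tissue labelled differentiated, 15 were called lower and 1 higher, with a median of -0.41. Over all genes of that tissue 7.38% were called lower and 5.08% higher. Other parts of the translation machinery had medians near 0. Ribosome biogenesis held no call among 14 genes and a median of 0.08 beside -0.11. Of 95 initiation and elongation factors, 3 were lower (3.16% beside 7.76%) and 1 higher (1.05% beside 1.9%), at a median of 0.01 beside -0.11. The higher call, AT5G12110, an elongation factor 1-beta, rose from 4.04 to 17.9. Among 77 splicing factors, SR45a (80.7 to 227) and SR30 (156 to 302), both serine/arginine-rich proteins, and AT1G60200 were higher (3.9% beside 1.92%). Lower calls numbered 2 (2.6% beside 7.28%), and the median was 0.18 beside -0.11. Many ribosomal proteins are coded by near-identical copies, whose split by the counting is uncertain.

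Histone and cell cycle lists held few calls. Of 45 histones, 1 was called (2.22% beside a same-length share of 21.1%), HTA11, an H2A protein that fell from 11.9 to 4.24. The list median of -0.43 lay above the length-class value of -0.71. DNA replication (12 genes, median 0.08 beside -0.11) and the mitotic cyclins and their partners (14 genes, median -0.10 beside -0.11) held none, at summed FPKM of only 34.7 and 35.8 in cells. Of 11 D cyclins, which drive entry into division, and CDK inhibitors, 10 ratios were below 0, at -0.55 beside -0.24. CYCD3;3, the only call (9.09% beside 9.11%), fell from 13.2 to 4.92. Profilins and actin depolymerising factors, which control filament turnover, gave 5 lower calls and 1 higher among 20 entries with the actins (25% lower, beside a same-length share of 14.2%), at -0.46 beside -0.35. PRF1 fell from 926 to 321, ADF8 from 135 to 42.9 and ADF11 from 129 to 50.2, and PRF4 rose from 5.01 to 13.3. ADF8 and ADF11 are root hair members of their family.

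None of 12 cell wall lists had a median above 0 as deposited, and 2 did under TPM. Of 20 expansins, 8 were lower and none higher (40%, beside a same-length share of 11.7%), at a median of -0.95 beside a length-class value of -0.24. EXPA11 fell from 32.9 to 8.18, EXPA8 from 20.1 to 6.33, EXPA14 from 18.01 to 7.64 and EXPB1 from 42.8 to 19.95. Of 23 xyloglucan enzymes, which cut and rejoin wall polymers, 7 were lower (30.4% beside 10.8%), at -0.65 beside -0.24. XTH4 fell from 226 to 82.8, XTH14 from 201 to 92.9 and XTH12 from 15.8 to 5.43. Cellulose synthases and related proteins had long transcripts with a length-class value of 0.08, and their median was -0.36, with 6 of 34 lower (17.6% beside 2.08%). Those were COBRA-like SHV2 (10.3 to 3.71) and 5 cellulose synthase-like genes, among them CSLC12 (5.42 to 2.13) and CSLB02 (5.32 to 1.86), and no CESA gene. Root hair genes overlapped these lists. Of 25, 13 were lower (52.0% beside 6.42%), at -0.80 beside -0.11, including the regulators RSL4 (30.0 to 13.02) and RSL2 (11.5 to 4.57).

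Other secreted and membrane proteins of the wall stood nearer to their length class. Arabinogalactan proteins were the most abundant, with a summed FPKM of 49280 in cells and 25140 in constructs, and 10 of 46 were lower (21.7% beside a same-length share of 16.5%), at -0.57 beside -0.46. AGP24 fell from 6115 to 1778, AGP13 from 1546 to 518 and AGP22 from 400 to 114. AGP15, at 8283 and 3392, and AGP14, at 7136 and 2483, were not called (q 0.177 and 0.0868 in the authors' deposited table). Lipid transfer proteins were lower in 12 of 48 (25% beside 21%), at -0.73 beside -0.71. LTP5 fell from 802 to 366 and XYP2, a xylogen-type protein, from 207 to 70.2. Of 28 CASP and CASP-like proteins, which build membrane platforms, 9 were lower (32.1% beside 18.3%), at -0.69 beside -0.46, and CASP1 stood at 491 and 370 without a call. Class III peroxidases were lower in 6 of 49 (12.2% beside 9.12%), at -0.06 beside -0.24. Among genes of tissue labelled differentiated, the medians were -0.67 for expansins, -0.70 for xyloglucan enzymes, -0.28 for arabinogalactan proteins and -0.55 for lipid transfer proteins.

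Aquaporins, the water channels, were abundant in cells and mostly lower in constructs. Their summed FPKM was 21820 in cells and 9800 in constructs, 19 of 22 ratios were below 0, and 7 genes were called lower (31.8% beside a same-length share of 8.89%) and none higher. The median was -0.98 beside a length-class value of -0.24. PIP2;5 (2.21 and 0.56) and NIP3;1 (2.78 and 0.956) passed the filter only through cells, so their ratios were below 0 by construction. In the plasma membrane, PIP2;4 fell from 332 to 88.1, PIP3 from 1071 to 447 and PIP2E from 21.8 to 11.9. In the vacuole membrane, TIP2 fell from 2058 to 768, TIP2;2 from 974 to 439 and TIP4;1 from 171 to 74.9. NLM1, a NOD26-like channel, fell from 255 to 107. The most abundant, GAMMA-TIP at 4966 and 1608 and DELTA-TIP at 2996 and 745, were not called (q 0.108 and 0.0651 in the authors' deposited table). PIP2B stood at 491 and 517 and PIP1;4 at 113 and 101. The same list in tissue labelled differentiated had 8 of 23 lower, at a median of -0.78, where 7.38% of all genes were called lower.

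Lower calls among proton pumps lay mainly in the vacuolar ATPase. Of 24 entries 6 were lower (25% beside a same-length share of 7.51%) and 1 higher, at a median of -0.44 beside a length-class value of 0.04. The lower calls were the proteolipid AVA-P4 (451 to 132), DET3 (587 to 237), AT3G58730 (680 to 274), AT4G02620 (967 to 414) and VAG2 (781 to 371), all subunits of the vacuolar ATPase, and HA7 (28.1 to 14.0), a pump of the plasma membrane. The most abundant proteolipids were not called, with AVA-P2 at 2539 and 843, VHA-C3 at 2365 and 775 and AVA-P1 at 2030 and 644. The large catalytic subunit VHA-A stood at 496 and 402, the vacuolar pyrophosphatase AVP1 at 71.9 and 66.7, and the main plasma membrane pumps HA1 at 107 and 112 and HA2 at 240 and 187, none of them called. HA9 was the higher call, at 0.724 and 1.70. It passed the filter only through constructs, so it could only be higher.

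**Figure D4:**
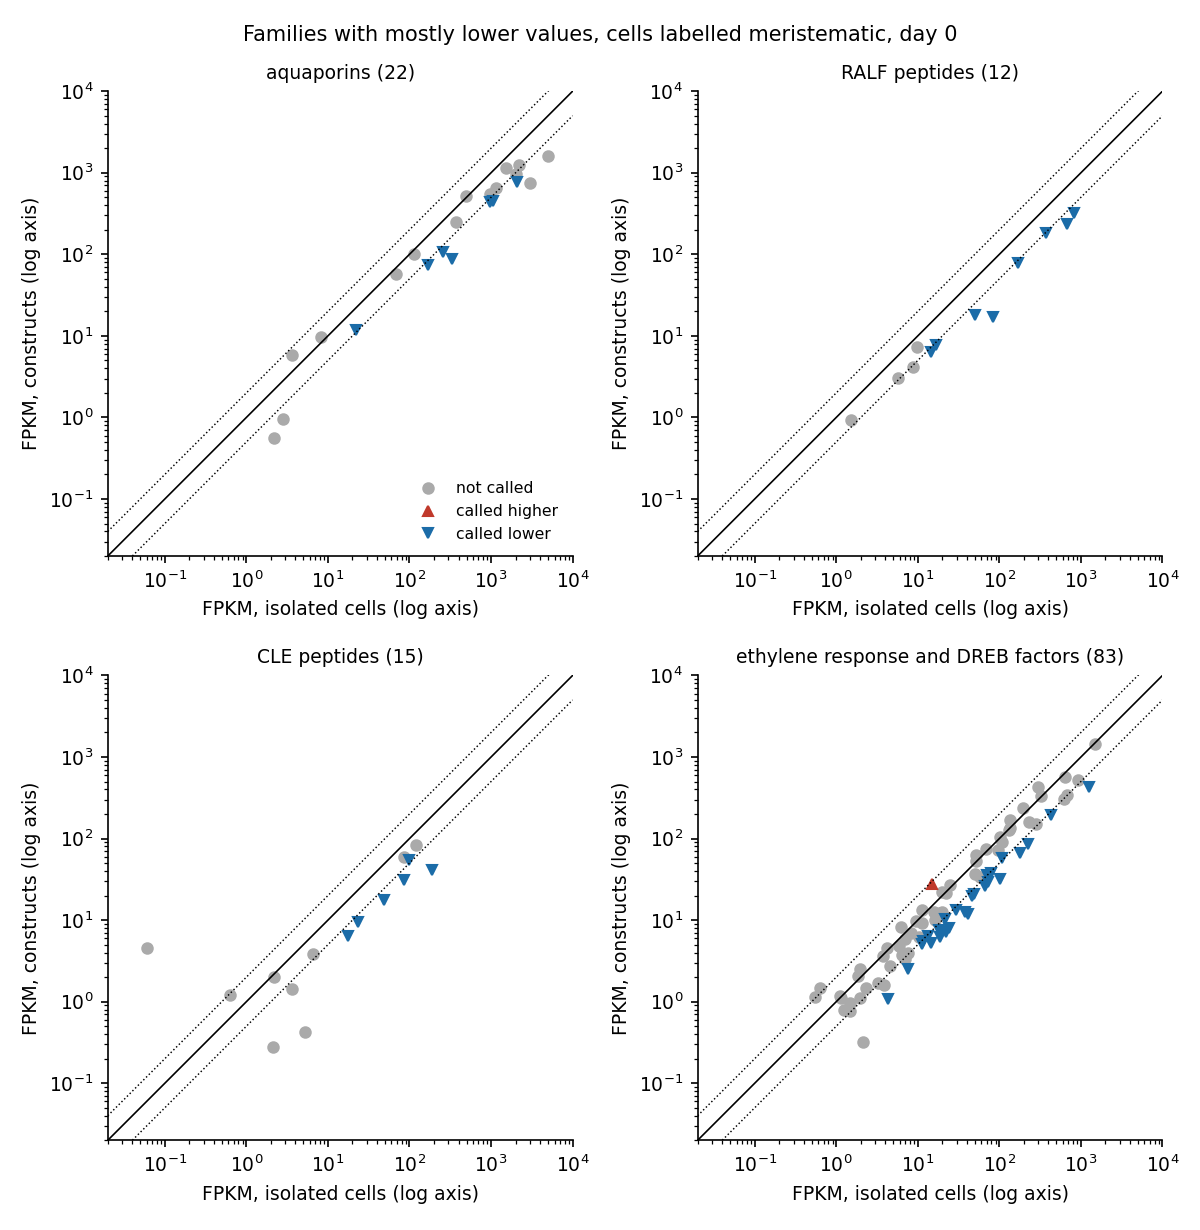
Pooled FPKM in constructs (y, log axis) against cells (x, log axis) for members of 4 lists with a value above 0 in both groups, 1 point per gene; the solid line marks equality, the dotted lines a 2-fold difference, and colour and shape the call. All 12 RALF points and 19 of 22 aquaporin points lie below equality.

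The metabolic lists given here lay within 0.3 of their length class. Nuclear genes of the respiratory chain and the mitochondrial ATP synthase were lower in 13 of 64 (20.3% beside a same-length share of 16.2%) and higher in none, at -0.61 beside -0.71, with summed FPKM of 40730 and 21070. The median distance of these members from their length class was -0.19. AT2G42310, a subunit of NADH:ubiquinone oxidoreductase, fell from 750 to 261, AT3G52730, of the cytochrome c reductase, from 1353 to 505, and AT5G15320, of the ATP synthase, from 880 to 358. Glycolysis had 3 higher calls among 39 (7.69% beside 2.03%) and no lower one, beside a same-length share of 3.89%. Of its ratios 26 were below 0, at a median of -0.13 beside 0.00. FBA6, an aldolase, rose from 128 to 319, PFK3, a phosphofructokinase, from 4.21 to 9.33, and AT3G49160, of the pyruvate kinase family, from 9.24 to 19.0. MIPS2, which makes inositol phosphate, was the call among 9 genes of inositol and raffinose synthesis (11.1% beside 2.08%), at 9.82 and 40.8. The list median was 0.37 beside 0.00. Among 48 glutathione transferases, GSTU28 (126 to 33.2) and GSTU14 (7.39 to 2.27) were lower, 4.17% beside a same-length share of 14.7%. AT5G42150 was higher (2.08% beside 1.27%), and the list median was -0.16 beside -0.46.

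Early wound and touch genes gave lower calls. Of 28, 10 were called lower (35.7% beside a same-length share of 10.6%) and none higher, at -0.71 beside -0.24. CAF1a, a deadenylase subunit that shortens mRNA tails, fell from 54.8 to 14.8, ORA47, an AP2/ERF factor, from 102 to 31.6, ERF13 from 181 to 67.1 and TCH2, a calmodulin-like protein, from 361 to 169. The cold factors CBF1 (18.2 to 7.60), CBF2 (41.2 to 12.01) and DREB1A (14.6 to 5.26) fell together. WRKY40 at 406 and 378, WRKY33 at 308 and 365 and RAP2.6 at 900 and 800 were not called. Over the whole ethylene response and DREB family, 26 of 83 were lower (31.3% beside 13.1%) and 1 higher, at -0.71 beside -0.24. This list overlaps the wound list, and CBF1, CBF2, DREB1A, ORA47, ERF13 and ERF104 are lower calls in both. Calmodulins and calmodulin-like proteins were lower in 18 of 63 (28.6% beside 14.1%), at -0.77 beside -0.46, among them CAM5 (185 to 72.0) and CML43 (8.60 to 2.48). Lower calls in tissue labelled differentiated covered 16 of 28 wound genes, 30 of 90 ethylene response and DREB genes and 15 of 64 calmodulins. Over all genes of that tissue 7.38% were called lower. WRKY factors gave 3 higher calls (WRKY36, WRKY29 and WRKY48) and 1 lower (WRKY75) among 51, at -0.07 beside -0.11. The higher calls made up 5.88% beside 1.68%, and the lower call 1.96% beside 7.62%. Of 23 jasmonate genes, 3 were lower and none higher, where the same-length share of lower calls was 9.3%. They were the repressors JAZ7 and JAZ8 and the synthesis enzyme AOC4. The list median was -0.26 beside -0.11, and the median distance of members from their length class was -0.08.

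The CLE, GASA and RALF peptides had the lowest medians of the 94 lists as deposited, but relative to length class aquaporins (-0.73), root hair genes (-0.71) and expansins (-0.62) lay lower than CLE (-0.56), RALF (-0.44) and GASA (-0.40). Among 13 RALF entries 8 were lower (61.5% beside a same-length share of 17.7%), at -1.12 beside a length-class value of -0.71, and all 12 ratios were below 0. RALFL21 (1.51 and 0.937) passed the filter only through cells, so its ratio was below 0 by construction. RALF peptides raise the pH outside the cell and restrain growth. RALFL33 fell from 816 to 323, RALFL22 from 670 to 234, RALF1 from 373 to 185 and RALFL32 from 168 to 78.8. RALFL3 was called higher, listed at 0 in cells and 1.40 in constructs, and passed the filter only through constructs. Of 15 CLE genes 6 were lower (40% beside 20%) and none higher, at -1.26 beside -0.71. CLE2 fell from 49.1 to 17.4, CLE13 from 85.9 to 31.2, CLE12 from 97.3 to 55.1, CLE6 from 17.8 to 6.40 and CLE41, which keeps vascular stem cells dividing, from 23.1 to 9.60. CLE40, which limits the root niche, stood at 0.0599 and 4.51 without a call (q 0.181 in the authors' deposited table). Of 7 GASA genes, induced by gibberellin, 3 were lower (42.9% beside 21.1%). They were GASA4 (643 to 263), AT2G14900 (214 to 101) and AT2G39540, listed at 0 in constructs and 1.34 in cells. AT2G39540 passed the filter only through cells, so it could only be lower. GASA1 stood at 7330 and 3510 without a call, and the median was -1.19 beside -0.79. SAUR proteins, which promote auxin-driven growth, were lower in 11 of 37 (29.7% beside 20.2%), at -0.61 beside -0.71, such as AT4G22620 (104 to 37.2) and AT4G31320 (94.1 to 40.8). The median distance of SAUR genes from their length class was -0.12. In tissue labelled differentiated the medians were -0.94 for RALF, -0.45 for CLE, -0.48 for GASA and -1.04 for SAUR genes, and the differences between tissues were not tested.

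Clock genes stood above both 0 and their length class. Of 12, 11 ratios were above 0, at a median of 0.49 beside 0.04, with 3 called higher and 1 lower. PRR7 rose from 6.88 to 17.5, RVE1 from 9.06 to 18.6 and CCA1, a morning repressor, from 8.11 to 14.9. ELF4, a member of the evening complex, fell from 517 to 266. TOC1 stood at 35.7 and 49.6 and GI at 15.1 and 18.4, without a call. The clock list of tissue labelled differentiated had 4 of 12 higher and none lower, at 0.62, where 5.08% of all genes were called higher.

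All calls among genes of the organelle genomes were higher in constructs. Of 43 tested mitochondrial entries, 8 were called higher (18.6%, beside 1.86% over all genes) and none lower. Among the ratios 39 of 40 were above 0, and the median was 1.3. Entries under an FPKM of 1 in cells passed the filter only through constructs, so their ratios were above 0 by construction. They included the called ATMG01190 (0.524 and 1.725) and ATMG00520 (0.859 and 3.04). ATMG00690 rose from 9.56 to 57.9 and ATMG01380 from 769 to 3450, and ATMG01390 stood at 2078 and 2982 without a call. Of 43 plastid entries 7 were higher (16.3%) and none lower, at a median of 0.49. ATCG00790 rose from 196 to 489 and ATCG00780 from 57.2 to 128. In tissue labelled differentiated the mitochondrial median was 3.48, with 34 of 54 higher (beside 5.08% over all its genes), and the plastid median 0.47. Entries under an FPKM of 1 in those cells passed the filter in the same way. The difference between tissues was not tested. Poly(A) selection keeps organelle transcripts poorly, so these values describe what passed it. These IDs are not named in the reference, and no length was assigned to them.

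The ends of the distribution held genes of further kinds. BAG6, a co-chaperone that binds HSP70, rose from 154 to 556, and EMB3111, a tetratricopeptide repeat protein, from 4.86 to 18.3. SDG37, of the SET domain group, rose from 3.92 to 14.9. At the low end were RHA3A, a RING-H2 protein (577 to 140), COPT1, a copper importer (63.5 to 15.5), BBX31, a B-box zinc finger protein (11.4 to 2.72), and CID5, which interacts with poly(A)-binding protein (50.0 to 12.2). SAG21, a short stress protein, was among the largest drops in FPKM, at 7031 and 2648, without a call (q 0.209 in the authors' deposited table).

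Some abundant genes have no ratio at all. The dehydrins COR47, ERD10, ERD14 and LTI30, which protect drying or chilled cells, and the glutathione transferases GSTU19 and GSTU25 were listed at 0 in cells and at FPKM of 6587, 4529, 3376, 3803, 5215 and 3565 in constructs. They were among 11 tested genes for which the authors' deposited table gives a log2 ratio of 0 and a q of 1, with a summed FPKM of 36832 in constructs. In cells labelled differentiated, ERD10 stood at 3144, ERD14 at 3480, LTI30 at 4138, GSTU19 at 5723 and GSTU25 at 3897, while COR47 was again listed at 0. An exact 0 at such levels can be a failed estimate, so these genes enter no median, list sum or call. Among dehydrins and late embryogenesis abundant proteins, 7 of 49 entries tested were lower, including LEA4-5 (1368 to 428), and none was higher. That is 14.3%, near the same-length share of 14.6%, and 5 of the 49 had no ratio and could not be called; the median was -0.29 beside -0.46.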

How the data were processed

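Per the labels' protocols, RNA was extracted with TRIzol, cleaned on a micro column, selected for poly(A) tails and made into libraries with a directional kit. The submitters' processing notes name HISAT2 and Cufflinks. Their versions, the genome build, the use of strand in counting and the making of the q-value were not given in the sources used here. Overlapping, antisense and near-identical genes are therefore uncertain. The FPKM values were deposited by the authors, 1 per library in a table of 33560 rows and 1 pooled value per group in a table of 33201 rows, which also holds the authors' log2 ratio and q-value. FPKM gives no read totals, so depth is unknown.

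Ratios of constructs over cells were computed from the deposited FPKM columns with no pseudocount; for genes with a finite ratio they differed from the deposited log2 ratio by at most 0.097. A call needs an authors' q-value under 0.05, which has a floor of 0.000551. The library table could not be joined to genes, since its 6 libraries used here correlated line by line at a median of 0.346, so the planned limma fits were not run. Of 32919 single IDs, 32218 matched TAIR10.1 (RefSeq), which gave names, transcript lengths and promoter windows by locus ID, without use of the authors' coordinates; 282 entries join several IDs. A gene was named if it was among the 12 highest or lowest called ratios (symbol, FPKM of at least 10), the 10 largest rises or falls in FPKM, the 6 called members of a list with the smallest q, listed at 0 on 1 side and reaching an FPKM of 10 on the other side, or SCR. Further list members, such as those without a call, were chosen for a value after their values were seen. Members and lists were chosen with earlier results of these data known. The length table was tested on simulated data. Nothing in the labels ties libraries to plants or cultures, so permutation p-values measure only the spread between these libraries. Python 3.11.15, pandas 2.3.3, numpy 2.4.6, scipy 1.17.1 and matplotlib 3.10.9 were used.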

Additional observations from a re-analysis of the deposited data

How the results depend on the processing

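At a q under 0.01 the calls went from 1823 to 718, with 144 higher and 574 lower. Among all genes 2-fold apart, 20.3% were higher as deposited, 54.7% under TPM, 38.2% under quantile normalization, 32.1% under median-ratio factors, 16.1% with a pseudocount of 1, 14.6% at an FPKM of at least 5 and 14.0% at an FPKM of at least 10.

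List medians were taken relative to that of all genes, which TPM and median-ratio factors cannot change by construction. The 45 lists with a value at an FPKM of at least 5 kept their direction, and 2 of them moved by over 0.3. Under quantile normalization glutathione transferases turned to 0.08. With a pseudocount of 1, glycolysis turned to -0.01 and glutathione transferases to 0.02. With the length-class median subtracted, chosen after seeing the data, ubiquitin and conjugating enzymes turned to 0.13, histones to 0.30, late embryogenesis abundant proteins to 0.12, glutathione transferases to 0.26 and glycolysis to -0.07, and 8 more lists moved by over 0.3. The cause was not tested beyond what each setting does by construction.

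Leaving out 1 library at a time, the difference in summed FPKM (constructs less cells) ranged from -114060 to 9902.5, the last without replicate 3 of the cells, and that in genes detected from -463.5 to 452. Without replicate 3 of the cells the latter was -463.5 and without replicate 2 of the constructs -75.3. With libraries of the same number paired as a replicate block, chosen after seeing the data, the differences stayed -69529 (exact test over signs, p = 0.75) and 131.67 (exact p = 1), where 3 pairs cannot go below 0.25; the labels do not say what a number shares. Per gene, no paired analysis was possible because the library columns cannot be joined to genes. Tests on sums over neighbouring lines, their interaction between tissues and their alternatives were not run for the same reason: the sums correlated with the pooled ratio at 0.04 over 223 genes, 0.18 over 79 and -0.02 over 20 in windows of 15, 30 and 60 lines either side.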

Other observations

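Several families not described above were also measured. Thioredoxins and glutaredoxins, small redox proteins, were lower in 11 of 93 and higher in none (11.8%, beside 16.4% among genes of the same lengths), at a median log2 ratio of -0.41 beside a length-class value of -0.46. Defensins, thionins and PR proteins were lower in 9 of 37 (24.3% beside 16.5%) and higher in 1, at -0.68 beside -0.71. Extensins and proline-rich wall proteins were lower in 13 of 97 (13.4% beside 9.88%) and higher in 1. Pectin methylesterases and their inhibitors were lower in 8 of 46 (17.4% beside 12%). MYB factors gave 4 higher (5.06% beside 1.57%) and 6 lower calls (7.59% beside 8.17%) among 79, at 0.07 beside -0.11. Receptor kinases gave 4 higher (3.54% beside 2.7%) and 5 lower (4.42% beside 1.39%) among 113, at -0.08 beside 0.08. The 58 RNA helicases had a median of 0.30 beside a length-class value of 0.08, with 2 lower calls (3.45% beside 4.7%). TIR and NB-LRR resistance proteins held no call among 64, and neither did 21 genes of monolignol and phenylpropanoid synthesis or 18 of camalexin and indole glucosinolates. Nuclear photosynthesis genes had 1 lower call among 38 (2.63% beside 15.4%). Their summed FPKM was only 290 in cells, and the same-length share takes no account of level.

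Some short non-coding RNAs, chosen after their values were seen, were listed at 0 in 1 group or the other. The snoRNAs AT1G74456 and AT1G75163 stood at FPKM of 552 and 365 in cells, and MIR158a at 29.4, all listed at 0 in constructs and not called. AT2G43137, also a snoRNA, and MIR852 stood at 86.0 and 103 in constructs and were listed at 0 in cells. Poly(A) selection does not retain mature forms of either class.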
